A study of Bos taurus with 2 samples.

Results

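*INHBC*, *PIK3CG*, *ICAM3* and *ESR1* are the genes for which the study that reported these data shows tissue-specific histone marks of active promoters. Those marks were transferred from human to cattle and not measured in these cattle tissues. The study set expression measured in cattle beside them and, for *INHBC*, low promoter methylation in cattle liver. *INHBC* was discussed for liver, *PIK3CG* and *ICAM3* for blood and immune tissues, and *ESR1* for vagina. They were chosen here by name and are 4 of the 20735 protein-coding genes of at least 750 bp on chromosomes 1 to 29 and X. The study's methylation data, which it shows at *INHBC*, *PIK3CG* and *ICAM3*, include the samples used here. Its naming of these genes may thus depend in part on the values below. All 4 were found in the annotation, and all 4 promoters, bodies and nearest CpG-dense windows passed the minimum of 20 calls per sample. DNA methylation was measured by whole-genome bisulfite sequencing (WGBS) in 2 samples of bone, Bone_1 and Bone_2, both labelled as Holstein cattle of female sex, with no treatment or age given. They form 1 group, and the labels do not say whether they came from 1 or 2 animals, so an SD or a test between them describes these samples and may be technical. With bone alone, no comparison with the tissues named above was made here.

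In mammalian DNA, methylation sits mainly on the cytosine of a CpG, a C followed by a G. Promoters of genes that are in use, and most stretches with many CpG sites, usually carry little of it, whereas gene bodies and the DNA between genes usually carry much. Promoters with few CpG sites often lose methylation only in the cells that use the gene. *INHBC* encodes an activin subunit that is made chiefly by liver cells. Activins are secreted signals of the transforming growth factor beta family. *PIK3CG* encodes the catalytic subunit of a phosphoinositide 3-kinase that white blood cells use downstream of chemokine receptors. *ICAM3* encodes an adhesion protein on the surface of resting white blood cells that binds the integrin made of the *ITGAL* and *ITGB2* products. *ESR1* encodes oestrogen receptor alpha, a hormone-activated transcription factor of the reproductive tract, breast and bone, and in mammals it is transcribed from several alternative promoters.

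Bisulfite leaves methylated cytosines as they are and converts the others, so each read over a CpG gives a methylated or an unmethylated call. A level is the share of methylated calls over all calls of a region, in percent, with the cytosines of both strands merged into CpG sites. Bone_1 held 582241763 calls and Bone_2 440334436. On chromosomes 1 to 29 and X the level was 72.3% in Bone_1 and 58.7% in Bone_2, and the values below are to be read against that gap. Over the 40214 tested windows at gene ends, the median was 69.6% and 51.6% at 15.9 and 11.3 calls per CpG site. The brackets after a level give a 95% Wilson interval, which covers counting error only and takes all calls as independent. It is too narrow where 1 read called several sites, and the libraries carry no molecular identifiers. As a check of the tissue label, an end under 20% in both samples was present in 3 of 12 bone cell markers (*SP7*, *COL1A1* and *COL1A2*), in 4 of 14 white blood cell markers (*CD3E*, *LCP1*, *CORO1A* and *CD37*) and in 0 of 14 liver markers. Over all genes the share was 52.3%, so these methylation levels do not separate bone from blood. Bone holds marrow, and the part of other cells in the results below was not tested.

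The promoter, from 1000 bp upstream to 500 bp downstream of the annotated start, was highly methylated at *INHBC*. Its level was far lower at the other 3 genes. In order of the mean of both samples, *PIK3CG* stood at 13.0% ± 0.230 (SD, n = 2), *ESR1* at 15.2% ± 16.8, *ICAM3* at 20.3% ± 0.209 and *INHBC* at 78.1% ± 12.9. The samples lay 0.326 points apart at *PIK3CG* and 0.296 at *ICAM3*, and they lay 18.2 points apart at *INHBC* and 23.7 points apart, in the opposite direction, at *ESR1*. Neighbours in this order were compared within each sample by Fisher's exact test, 6 comparisons in all with adjusted p-values. The order, and so the choice of pairs, came from the same calls that were tested. *INHBC* lay above *ICAM3* in Bone_1 (adjusted p = 2.29e-131, exact test) and in Bone_2 (adjusted p = 1.10e-30, exact test). *ESR1* lay below *ICAM3* in Bone_1 (adjusted p = 0.000542, exact test), and no difference between the pair was shown in Bone_2 (adjusted p = 0.0741, exact test). *ESR1* lay below *PIK3CG* in Bone_1 (adjusted p = 0.0432, exact test) and above it in Bone_2 (adjusted p = 9.15e-05, exact test). These tests count calls as independent, and *ESR1* had only 61 calls in Bone_1, so the order in Bone_1 is uncertain. No common order of these 2 promoters was shown.

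**Figure D1:**
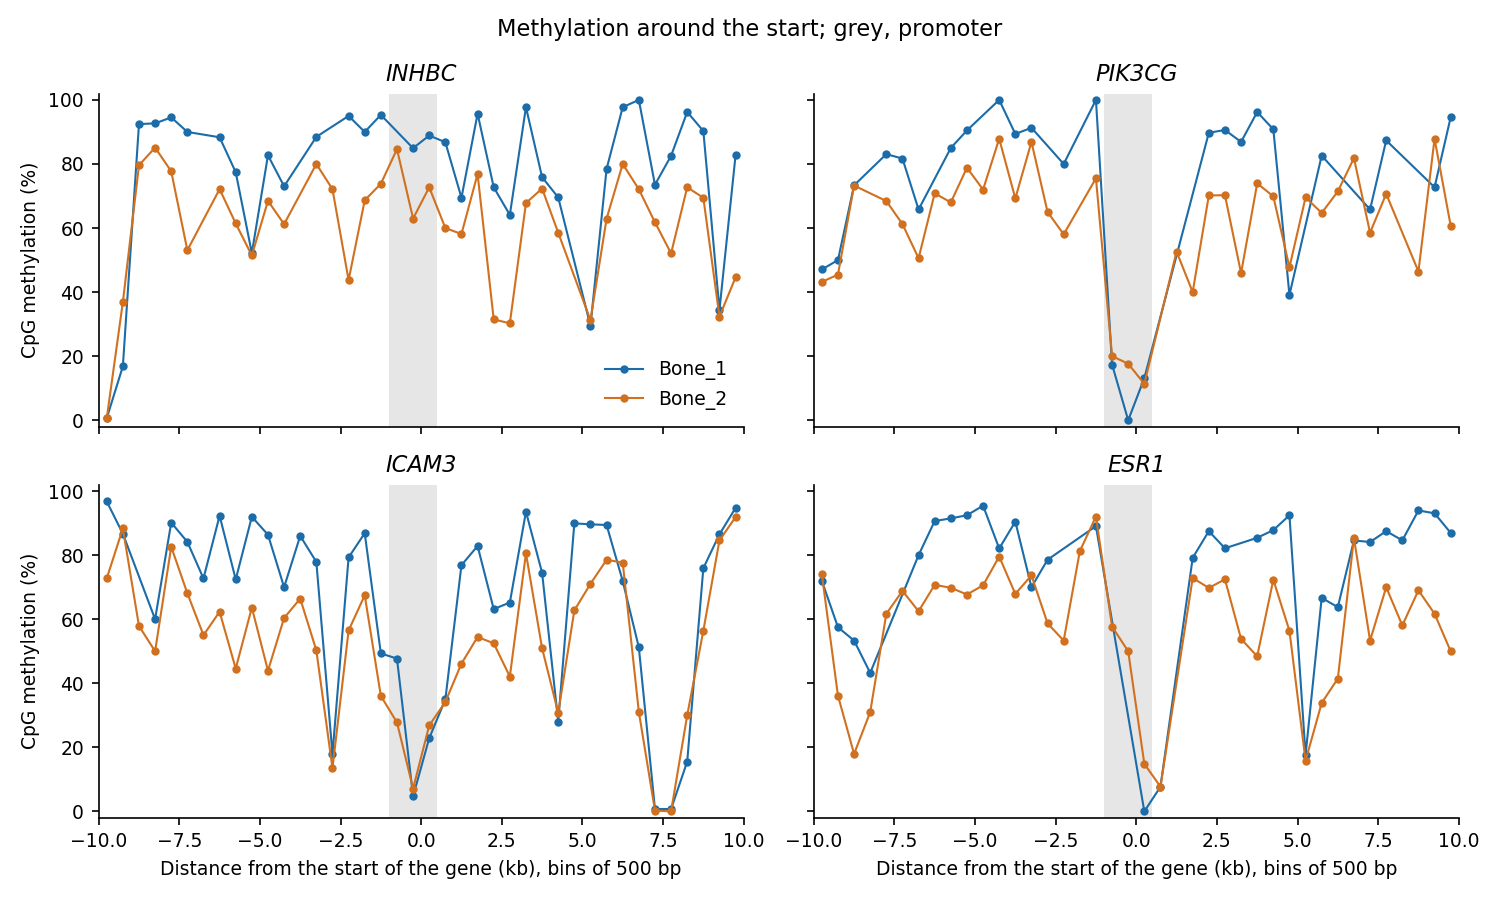
CpG methylation in percent (y) by distance from the annotated start in kb (x), in bins of 500 bp with at least 10 calls, for each gene in Bone_1 (blue) and Bone_2 (orange), with the promoter in grey. At *PIK3CG*, *ICAM3* and *ESR1* both samples dip at the start, and at *INHBC* they stay high through it, with 88.9% and 72.7% in the first 500 bp of the gene.

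The single CpG sites carry the same picture, and the deposited counts give each with its flanking bases. On the strand of the gene, written 5′ to 3′ with the CpG in capitals, the 3 *ESR1* sites farthest upstream were aCGg at position 88682541, tCGa at 88682627 and aCGc at 88682659 of chromosome 9, and 4 of its 12 promoter sites were tCGa. The most frequent contexts were cCGg at *INHBC* (6 of 26 sites) and *ICAM3* (4 of 21) and aCGt at *PIK3CG* (4 of 19). A distance below is that of the C from the annotated start, negative upstream.

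The *INHBC* promoter was methylated in both samples, with no low site. Its 26 CpG sites, from 56021329 to 56022358 on chromosome 5, gave 711 methylated calls of 815 in Bone_1, or 87.2% [84.8, 89.4], and 216 of 313 in Bone_2, or 69.0% [63.7, 73.9]. Of all tested gene-end windows, 83.2% had a lower mean of both samples and 16.8% a higher one. Here and below these windows cover both ends of each gene, since the annotation gives no strand, so the shares are not ranks among promoters. Of the 25 sites with 5 or more calls in both samples, 23 were over 50% in both and 0 were under 20% in both. The lowest site of Bone_1 was the aCGg at -50 bp, with 23 of 33 calls or 69.7%, next to 58.8% of 17 calls in Bone_2. The lowest site of Bone_2 was the cCGg at 262 bp, with 2 of 6 calls, where Bone_1 had 21 of 22. Every site of the *INHBC* promoter thus held methylated calls in both samples. Upstream of the start the level was 85.0% and 64.9% over 9 sites, and downstream of it 88.9% and 72.7% over 17. The 1000 bp beyond the promoter, upstream, were no lower, at 94.8% and 72.6% over 15 sites.

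Bone_1 was higher than Bone_2 at 24 of the 26 sites of *INHBC*, and over the promoter by 18.2 points (adjusted p = 6.22e-11, Fisher's exact test over all gene-end windows). This test compares 2 libraries, with no replicate behind it. Across all gene ends 54.3% were called higher in Bone_1 and 15.4% higher in Bone_2, and the median difference was 10.7 points, so the call at *INHBC* is the common one.

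At *PIK3CG* the start lay in a short stretch of low methylation with equal levels in both samples. The 19 CpG sites, from 47987562 to 47988848 on chromosome 4, gave 30 methylated calls of 233 in Bone_1, or 12.9% [9.17, 17.8], and 40 of 303 in Bone_2, or 13.2% [9.85, 17.5]. The difference was 0.326 points, with Bone_2 the higher (adjusted p = 1, Fisher's exact test), and its sign changed under 3 other settings. Of the windows at both ends of all genes, 25.5% had a lower mean. Of the 17 sites with 5 or more calls in both samples, 16 were under 20% in both, and the exception was the gCGg at 17 bp, with 3 of 16 calls methylated in Bone_1 and 7 of 16 in Bone_2. These low sites ran from the cCGa at -537 bp, with 4 of 21 and 2 of 18 calls methylated, to the tCGt at 434 bp, the last site of the promoter, with 1 of 7 and 2 of 23. The first site, an aCGa at -852 bp, had 0 of 2 calls in Bone_1 and 6 of 22 in Bone_2.

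Upstream of the *PIK3CG* stretch the level was high in the next bin. From 1500 to 1000 bp upstream, 6 sites were at 100% of 44 calls in Bone_1 and 75.5% of 94 in Bone_2. With 2000 bp upstream taken as promoter, the mean level was 27.3% in place of 13.0%. No CpG lay from 500 to 1000 bp downstream, and from 1000 to 1500 bp the level was 50% of 6 calls and 52.6% of 76. High levels were next measured from 2000 to 2500 bp, at 89.7% of 585 calls and 70.2% of 295, after a single site with 0 of 2 calls methylated in Bone_1 and 40% of 20 in Bone_2. Equal levels at the promoter went with a large gap in the rest of the gene, described below.

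Within its promoter, *ICAM3* had its lowest methylation just upstream of the start. The 21 CpG sites of the promoter, from 14866803 to 14868276 on chromosome 7, gave 97 methylated calls of 474 in Bone_1, or 20.5% [17.1, 24.3], and 48 of 238 in Bone_2, or 20.2% [15.6, 25.7]. The difference was 0.296 points (adjusted p = 1, Fisher's exact test), and 30.5% of the gene-end windows had a lower mean. The mean hides a gradient within the promoter. In the last 500 bp before the start the level was 4.72% of 212 calls in Bone_1 and 7.14% of 84 in Bone_2, and in the first 500 bp of the gene it was 22.9% of 153 and 26.8% of 82.

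The 3 *ICAM3* sites farthest upstream were the highest of Bone_1, but not of Bone_2, where the gCGg at 274 bp had 6 of 11 calls methylated. They were tCGc at -997 bp, with 19 of 19 calls methylated in Bone_1 and 5 of 9 in Bone_2, tCGt at -989 bp, with 9 of 18 and 2 of 10, and cCGc at -862 bp, with 19 of 20 and 7 of 15. These 3 sites held 47 of the 97 methylated calls of the promoter in Bone_1 and 14 of the 48 in Bone_2, so the level at *ICAM3* depends on how far upstream the promoter is drawn. With 500 bp upstream in place of 1000, the mean fell to 14.6% and Bone_2 was the higher by 4.54 points (adjusted p = 0.259, exact test). With 2000 bp it was 45.1% and Bone_1 was the higher by 7.33 points (adjusted p = 0.0112, exact test).

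*ESR1* was the only one of the 4 promoters called higher in Bone_2. Its 12 CpG sites, from 88682541 to 88683548 on chromosome 9, gave 2 methylated calls of 61 in Bone_1, or 3.28% [0.904, 11.2], and 70 of 259 in Bone_2, or 27.0% [22, 32.7]. All 12 sites were higher in Bone_2, and the difference was 23.7 points (adjusted p = 3.06e-05, Fisher's exact test), a direction called at 15.4% of gene ends. Depth differed at this promoter, with 5.08 calls per site in Bone_1 and 21.6 in Bone_2, and 9 of the 12 sites had under 5 calls in Bone_1. Over the 3 sites with 5 or more calls in both samples the mean was 7.24% and the difference 14.5 points (adjusted p = 0.0256, exact test). The part of depth in the difference was not tested.

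Within the *ESR1* promoter both samples were lower after the start than before it. The 4 sites upstream were at 20% of 10 calls in Bone_1 and 52.4% of 84 in Bone_2. The 8 sites downstream were at 0 of 51 calls in Bone_1 and at 14.9% of 175 in Bone_2. The count in Bone_1 allows a share of up to 5.88% if all calls are independent, and a higher one where a read called several sites. The highest site of Bone_2 was the tCGa at -438 bp, with 17 of 21 calls, where Bone_1 had 1 of 3. The next 500 bp into the gene, with 10 sites, no longer differed between the samples by more than counting error, at 7.69% of 156 calls and 7.74% of 168. The 1000 bp beyond the promoter, upstream, were at 89.1% of 257 calls and 89.4% of 199, so methylated DNA began within the promoter or just before it in both samples. With 2000 bp upstream taken, these sites held 257 calls in Bone_1, next to 61 in the promoter, and 199 in Bone_2, next to 259. The mean level then rose to 63.4% and the direction turned, with Bone_1 the higher by 18.5 points (adjusted p = 4.13e-07, exact test). Neither part alone was higher in Bone_1, so the turn comes from summing sites read at unequal depth.

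**Figure D2:**
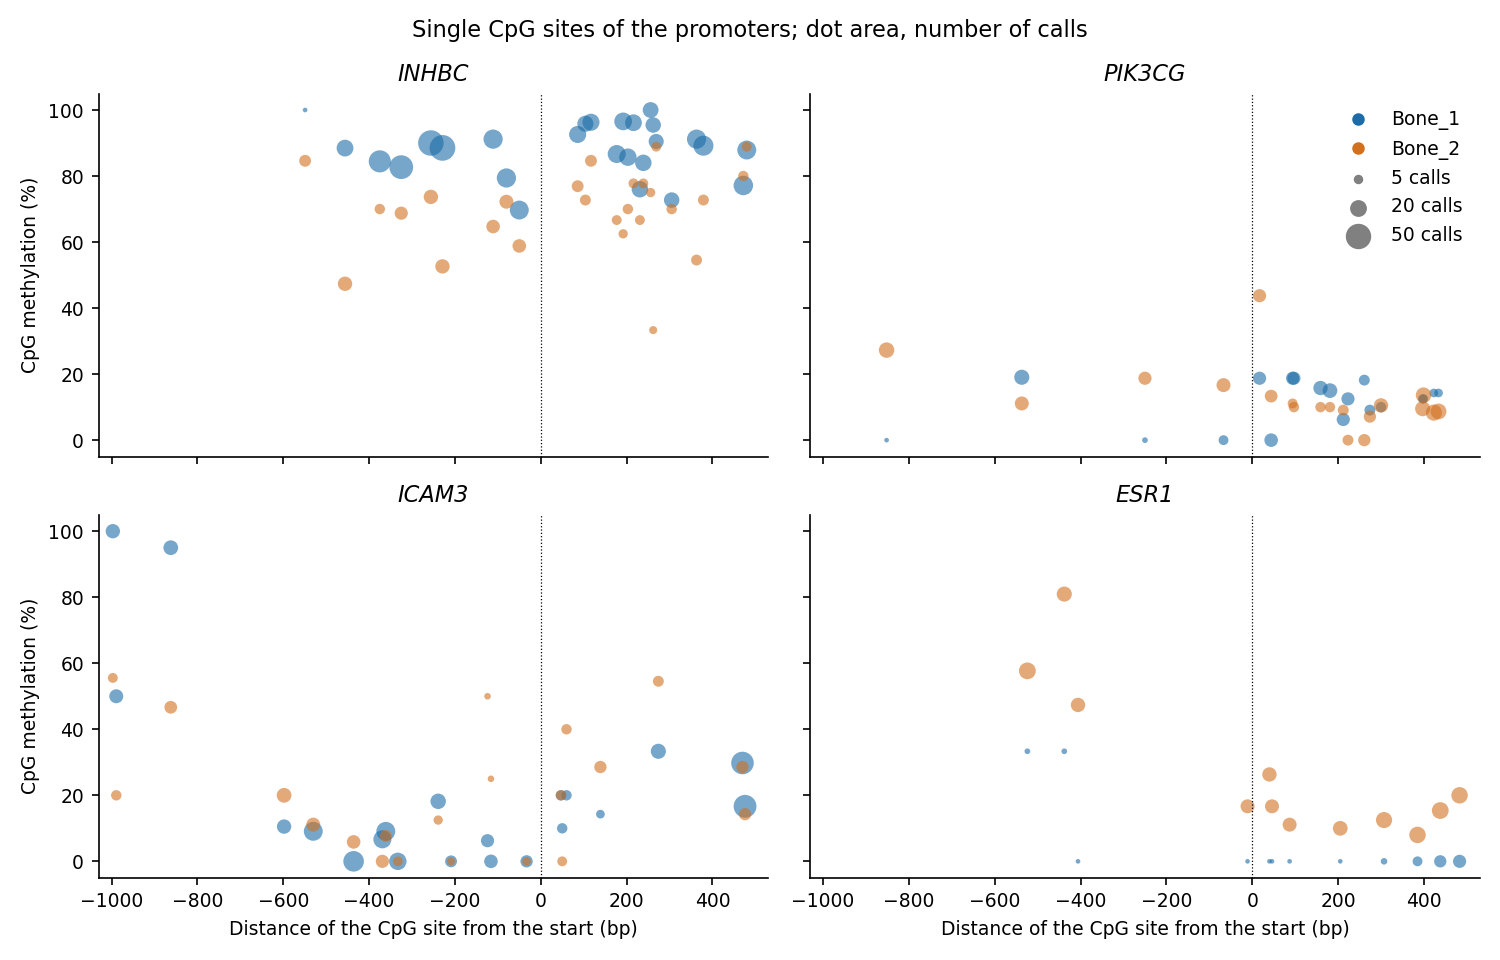
CpG methylation in percent (y) of each single site by its distance from the annotated start in bp (x), for Bone_1 (blue) and Bone_2 (orange), with the area of a dot in proportion to its number of calls. At *ESR1* the dots of Bone_1 are small (2 to 16 calls a site, against 18 to 26 in Bone_2) and each lies below the dot of Bone_2 at the same site, and at *ICAM3* the 3 highest dots of Bone_1 sit at the upstream edge.

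Summed calls give more weight to deeply read sites, and the samples were deep at different sites. In an exact test stratified by CpG site, chosen after seeing the data, the share of gene ends called higher in Bone_2 was 1.05% and the share called higher in Bone_1 60.9%. *ESR1* was still called higher in Bone_2, at 3.93% and 22.9% with the same site weights (adjusted p = 0.000257, stratified exact test). *INHBC* was still called higher in Bone_1, at 87.1% and 68.7% (adjusted p = 9.19e-11, stratified exact test). No difference was shown at *PIK3CG* (12.3% and 12.3%, adjusted p = 1, stratified exact test) or *ICAM3* (21.9% and 19.6%, adjusted p = 0.555, stratified exact test). Both calls end when the calls of a window are reduced to the mean number per site, a lower limit on independent reads, with an adjusted p of 1 at *INHBC* and at *ESR1* (exact test). Only 8 of the 40214 windows were called under that limit, so it allows few calls for any gene.

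All 4 gene bodies, taken without 500 bp at either end, were methylated and were higher in Bone_1. The body of *INHBC* held 70 CpG sites at 75.5% [73.2, 77.6] in Bone_1 and 57.9% [55.1, 60.6] in Bone_2, a difference of 17.6 points (adjusted p = 4.75e-22, Fisher's exact test over all bodies). *PIK3CG* held 309 sites at 85.3% [84.3, 86.2] and 61.1% [59.8, 62.5], a difference of 24.1 points (adjusted p = 4.99e-175, exact test). *ICAM3* held 136 sites at 78.7% [77.3, 80.1] and 61.8% [59.3, 64.2], a difference of 17.0 points (adjusted p = 1.79e-33, exact test). *ESR1*, with 3616 sites over a gene of 416 kb, was at 76.5% [76.2, 76.8] and 62.5% [62.1, 62.9], a difference of 14.0 points whose p was too small to be computed. Of all 19292 tested bodies, 86.3% were called higher in Bone_1 and 6.37% higher in Bone_2, with medians of 77.2% and 61.1% and a median difference of 14.8 points. The calls of the 4 bodies are therefore the common case, and their levels lay near the middle of all bodies, *INHBC* above 39.6% of them and *PIK3CG* above 69.0%.

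The far ends of the genes were measured over the same length as the promoters. At *INHBC* the far end was at 90.3% of 953 calls in Bone_1 and 61.7% of 230 in Bone_2 (adjusted p = 1.50e-21, exact test), at *PIK3CG* at 92.6% of 27 and 70.3% of 148 (adjusted p = 0.0248, exact test), and at *ESR1* at 94.4% of 179 and 73.9% of 234 (adjusted p = 6.01e-08, exact test). At *PIK3CG* and *ESR1* the promoter thus lay far below both the body and the far end, and at *INHBC* it did not lie below the body in either sample. At *ICAM3* the far end was lower than the promoter, at 12.9% of 2519 calls over 103 sites in Bone_1 and 7.52% of 811 in Bone_2 (adjusted p = 5.45e-05, exact test). That end lies 0.23 kb from the neighbouring gene *RAVER1*, which encodes an RNA-binding protein, and both windows share sites.

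**Figure D3:**
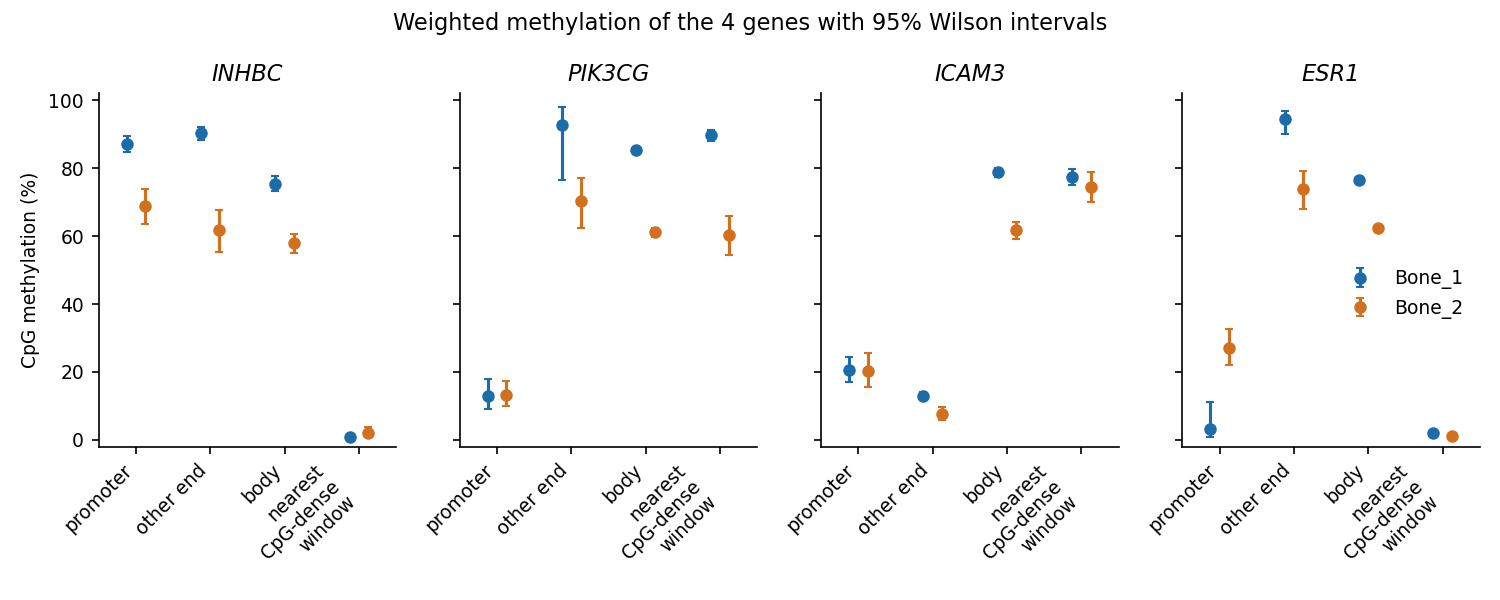
CpG methylation in percent (y) of the promoter, the far end, the body and the nearest CpG-dense window (x) of each gene in Bone_1 (blue) and Bone_2 (orange), with bars for the 95% Wilson intervals. The bodies lie from 75.5 to 85.3% in Bone_1 and from 57.9 to 62.5% in Bone_2, whereas the promoters spread from 3.28 to 87.2%.

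The nearest CpG-dense window, a 1000 bp window with at least 40 CpG sites, was unmethylated at *INHBC* and *ESR1* and methylated at *PIK3CG* and *ICAM3*. For *INHBC* it was not in the gene. The window from 56031001 to 56032000, with 84 sites, lay 9.69 kb upstream of the start, on the side of *R3HDM2*, the neighbouring gene 9.65 kb away, and was at 0.879% of 1251 calls in Bone_1 and 1.99% of 453 in Bone_2 (adjusted p = 0.108, exact test). For *PIK3CG* the window from 47991001 to 47992000, with 43 sites, was centred 3.09 kb into the gene, at 89.6% of 1390 calls and 60.3% of 277 (adjusted p = 1.47e-27, exact test). The promoter of *PIK3CG* was thus low without being CpG-dense, and the densest part of the gene was methylated. For *ICAM3* the window from 14861001 to 14862000, with 40 sites, was centred 5.78 kb into the gene, at 77.5% of 1301 calls and 74.6% of 374 (adjusted p = 0.341, exact test). The adjoining *ICAM3* window, with 49 sites, was at 46.6% of 1932 calls and 25.4% of 607, and the 500 bp bin from 7 kb on, with 35 sites, at 0.766% of 914 and 0.286% of 350. That bin runs past the end of the gene, at 7.26 kb, towards *RAVER1*. The contrast between the genes depends on the minimum of 40 sites. With at least 60, the nearest window was unmethylated at *PIK3CG* and *ICAM3* as well. Its mean of both samples was 0.462% for *PIK3CG*, 166 kb away, and 1.78% for *ICAM3*, at its far end. Over all 58108 CpG-dense windows, 54.5% were called higher in Bone_1 and 10.3% higher in Bone_2, with medians of 61.9% and 46.2%.

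The nearest CpG-dense window of *ESR1* lay deep within the gene. From 88804001 to 88805000, centred 121 kb past the annotated start, 82 sites were at 1.91% of 2728 calls in Bone_1 and 1.06% of 753 in Bone_2 (adjusted p = 0.209, exact test), and the window after it, with 98 sites, was at 2.22% of 1169 and 4.58% of 415. Over the 170 sites from 120.5 to 122.5 kb, the longest run of low bins and so chosen by these levels, the level was 1.78% [1.41, 2.25] in Bone_1 and 1.06% [0.607, 1.84] in Bone_2, a mean of 1.42% ± 0.511 (SD, n = 2). Of the 517 bins of 500 bp along *ESR1* with 20 or more calls in both, 7 were under 20% in both samples. They were the 2 bins at the start, 1 at 5 kb and the 4 from 120.5 to 122.5 kb. These 4 bins held 170 CpG sites, against 12 in the promoter at the annotated start. The annotation used here gives no exons or alternative starts, so whether a first exon lies there was not analysed.

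Averaged over longer bins, most of *ESR1* was methylated. In 42 bins of 10 kb the median was 82.8% in Bone_1 and 63.9% in Bone_2, and 41 of them were higher in Bone_1. The exception was the bin from 120 to 130 kb, at 10.6% in Bone_1 and 30.3% in Bone_2. The CpG-dense stretch within it took 81.9% of the calls of this bin in Bone_1 and 43.1% in Bone_2, at 22.8 and 6.66 calls per site, and without the stretch the bin was at 50.8% and 52.5%. At 500 bp, 481 of the 517 *ESR1* bins were higher in Bone_1, as were 41 of 44 in *PIK3CG*, 18 of 19 in *INHBC* and 12 of 14 in *ICAM3*. The number of bins under 20% in both samples was 1 in *PIK3CG*, at the start, 1 in *ICAM3*, the bin that runs past its far end, and 0 in *INHBC*.

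**Figure D4:**
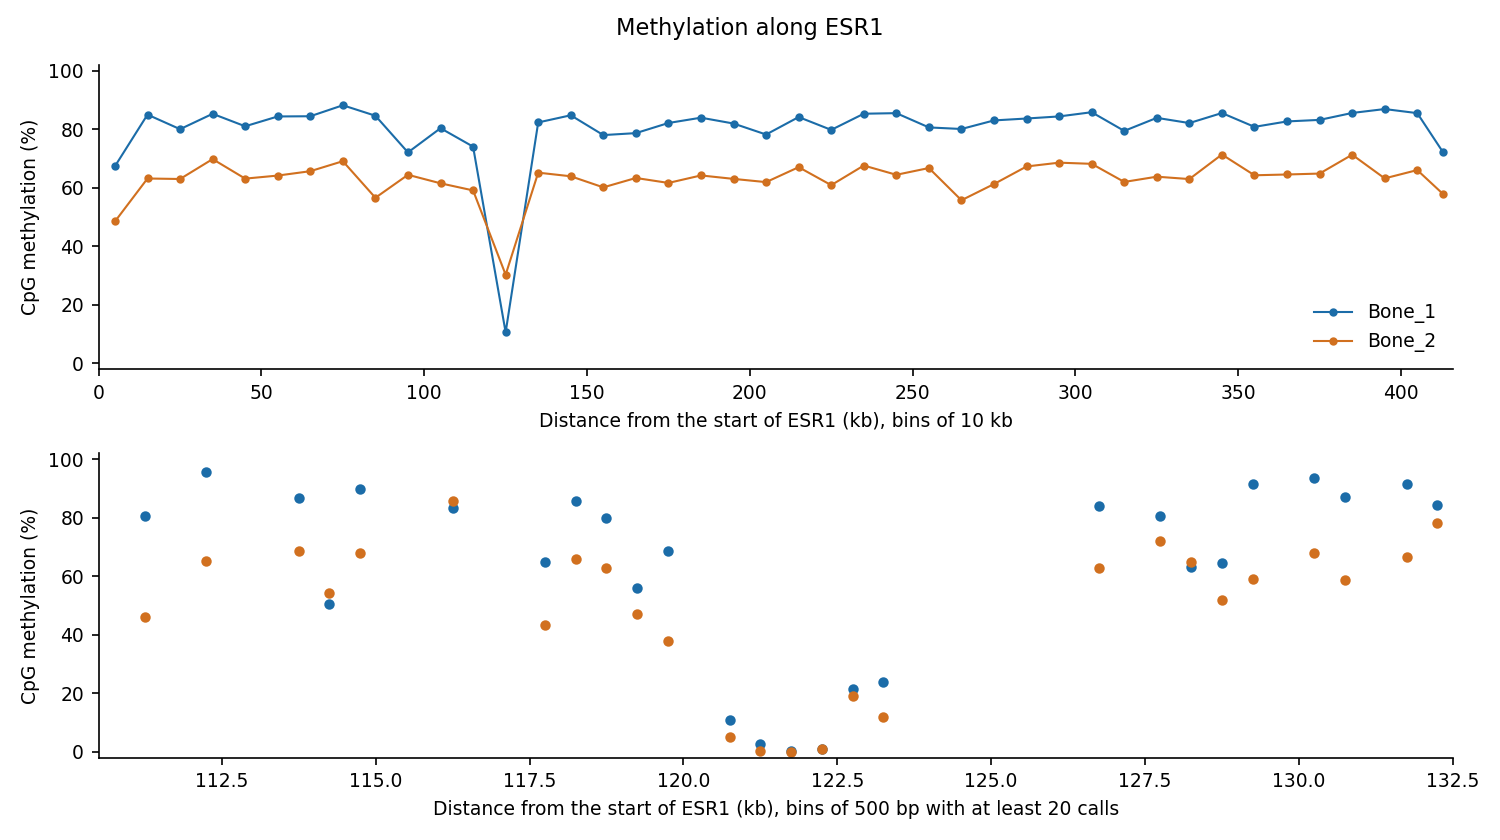
CpG methylation in percent (y) along *ESR1* by distance from the annotated start in kb (x), in bins of 10 kb over the gene (top) and of 500 bp up to 10 kb either side of the longest low stretch (bottom), in Bone_1 (blue) and Bone_2 (orange). Both samples are low from 120.5 to 122.5 kb, at 10.8% in Bone_1 and 5.06% in Bone_2 in the first 500 bp and near 0 after it. The only bin of 10 kb with Bone_2 above Bone_1 is the one that holds this stretch.

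Genes next to the 4 were measured at both ends, since the annotation gives no strand. *INHBE*, which encodes another activin subunit and follows *INHBC*, was methylated at both ends, at 75.2% and 59.1% at the end facing *INHBC* and 62.7% and 51.6% at the other. The end of *R3HDM2* facing *INHBC*, with 90 sites, was at 11% of 1284 calls in Bone_1 and 30.6% of 664 in Bone_2. It shares sites with the unmethylated CpG-dense window described above and also reaches towards *INHBC*. There the bin from 9500 to 9000 bp upstream of *INHBC* was at 16.8% of 226 calls in Bone_1 and 36.8% of 209 in Bone_2. *CCDC71L* and *PRKAR2B* on either side of *PIK3CG*, the latter a regulatory subunit of protein kinase A, were low at the ends facing it, at 3.38% and 18.6% and at 1.91% and 3.87%. *TYK2*, a kinase of cytokine signalling upstream of *ICAM3*, was at 84.6% and 65.5% at the facing end and 6.08% and 12.3% at the other. *RAVER1*, on the far side of *ICAM3*, was at 19.4% and 11.8% at the facing end, which shares sites with the far end of *ICAM3*, and at 15.0% and 13.8% at the other. *CCDC170* and *SYNE1*, on either side of *ESR1*, were methylated at the facing ends, at 83.3% and 74.9% and at 83.2% and 50.9%, and low at the others, at 0.832% and 3.00% and at 5.02% and 10.2%.

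*INHBC* had no end under 20% in both samples. Of the 13 genes of the inhibin and activin list 8 had one, next to 52.3% of all genes, among them all of the receptors *ACVR1*, *ACVR1B*, *ACVR1C*, *ACVR2A* and *ACVR2B*, the inhibitors *FST* and *FSTL3*, and the subunit *INHBB*. The subunits *INHA*, *INHBA*, *INHBC* and *INHBE* and the co-receptor *TGFBR3* had none. Taking the lower end of each gene, *ACVR2A* was lowest, at 0.408% and 0.528%, and *INHBC* highest, at its far end. Of 26 ends, 14 were called higher in Bone_1 and 5 higher in Bone_2, next to 54.3% and 15.4% of all ends. Differences over 20 points, found at 23.2% of all ends, were found at 6 of the 26, from *ACVR2B* (82.0% and 61.8%) to *INHBB* (78.8% and 46.3%), with *INHA*, *INHBA*, *FSTL3* and the far end of *INHBC* between.

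*PIK3CG* was 1 of 12 among 15 genes of phosphoinositide 3-kinase signalling with an end under 20% in both samples, next to 52.3% of all genes. The catalytic subunits *PIK3CA*, *PIK3CB* and *PIK3CD* had ends at lower levels than its promoter, at 0.560% and 0%, 0.589% and 0.256%, and 3.26% and 9.55%, with 88 to 122 CpG sites each in place of 19. Its regulatory partner *PIK3R5* was at 7.87% and 5.84% at the lower end over 42 sites. The other partner, *PIK3R6*, had the highest lower end of the list, at 42.3% and 46.3%. *INPP5D*, a phosphatase of blood cells, and *AKT1*, a kinase downstream, had no end under 20% in both samples either. Of 30 ends, 15 were called higher in Bone_1 and 3 higher in Bone_2, next to 54.3% and 15.4% of all ends. Of the 6 that differed by over 20 points, next to 23.2% of all ends, the far end of *PIK3CG* was 1 and *INPP5D* (88.2% and 49.9%) had the largest difference. *PIK3CD*, *PIK3R3* and *PIK3R6* were among the others.

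Among the ICAM genes measured, the lower end of *ICAM3*, on the side of *RAVER1*, was higher than that of the other 3. Of the list of ICAM genes, leukocyte integrins and *CD209*, 9 of 11 genes were found, *ICAM2* and *ITGAX* having no entry under these symbols. The adhesion genes *ICAM1*, *ICAM4* and *ICAM5* had ends at 2.09% and 3.08%, 1.18% and 0.658%, and 1.21% and 0.684%, with over 100 CpG sites in each, and *ICAM4* was the lowest of the list. The ends of *ICAM4* (110 sites, 4053 and 1064 calls) and *ICAM5* (108 sites, 3800 and 1023 calls) were nearly alike. Whether these windows share sites was not analysed, so they may not be separate low ends. The integrin subunits that *ICAM3* binds were higher at their lower ends, *ITGAL* at 23.8% and 26.7% and *ITGB2* at 30.4% and 19.5%. *CD209*, a lectin that also binds *ICAM3*, had the highest lower end, at 58.0% and 57.6%. Of 18 ends 10, or 55.6%, were called higher in Bone_1 and 0 higher in Bone_2, next to 54.3% and 15.4% of all ends. Differences were over 20 points at 3 of the 18, next to 23.2% of all ends, in *ITGB2* (83.1% and 58.9%), *ITGAM* (55.9% and 33.2%) and *ITGAD* (87.1% and 65.2%).

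Of the steroid receptor list, the *ESR1* promoter had the largest difference in favour of Bone_2. Of 16 genes, 9 had an end under 20% in both samples, a share near the 52.3% of all genes. Among them were *ESR2*, the other oestrogen receptor, at 1.38% and 5.29%, the progesterone receptor gene *PGR* at 10.9% and 16.8%, and the coactivators *NCOA1*, *NCOA2* and *NCOA3*. *ESR1* was not among them, since Bone_2 was at 27.0%. The glucocorticoid receptor gene *NR3C1* (68.7% and 48.4%) and *CYP19A1*, which encodes the enzyme that makes oestrogens, had no low end, and *CYP19A1* had the highest lower end, at 79.6% and 69.8%. The lowest was *NCOA2*, at 0.417% and 0.758%. Of 31 ends 17, or 54.8%, were called higher in Bone_1 and 7 higher in Bone_2, next to 54.3% and 15.4% of all ends. Differences were over 20 points at 8 of the 31, next to 23.2% of all ends. The *ESR1* promoter was the only one of these 8 with Bone_2 the higher, the others including the far end of *ESR1* and ends of *NR3C1*, *ESRRB*, *NCOA1*, *NCOA2* and *NCOA3*.

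**Figure D5:**
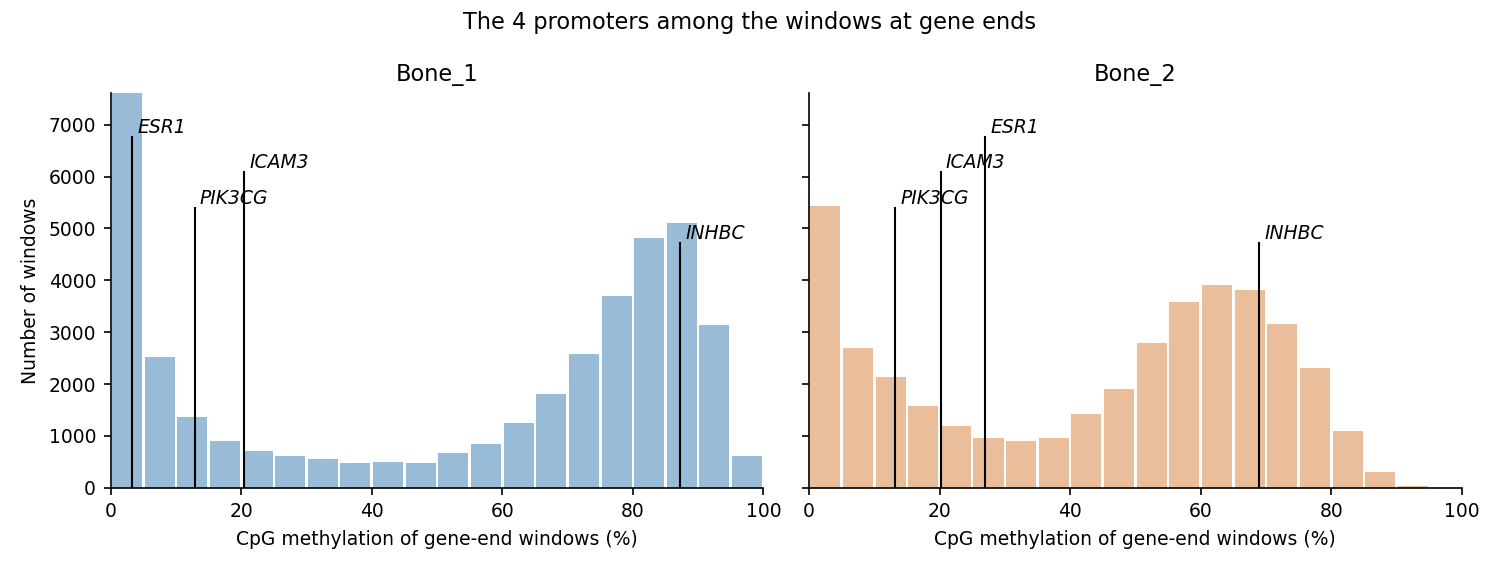
Number of gene-end windows (y) by CpG methylation in percent (x, bins of 5 points) in Bone_1 (left) and Bone_2 (right), with lines at the 4 promoters. *INHBC*, at 87.2% and 69.0%, lies in the methylated mode of either sample, *PIK3CG* and *ICAM3* lie between the modes at nearly the same level in both, and *ESR1* moves from 3.28% to 27.0%.

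The genes most like each of the 4 were taken as the 3 with the smallest Euclidean distance over 4 values, the levels of an end and of the body in each sample, among 37596 gene ends. For *INHBC* they were *ADGRE3*, *COL4A4* and *DLGAP2*, at distances of 1.04 to 1.33 points. For *ICAM3* they were *RNF216*, *FBXO41* and *JHY*, at 1.22, 2.44 and 2.49 points. For *PIK3CG* they were LOC327709, *LRP2BP* and *THOC6*, at 2.01 to 2.15 points, with 46 to 89 CpG sites at the end in place of 19. For *ESR1* they were LOC132343406, *PGD* and *NRG4*, at 1.94, 2.22 and 3.63 points, with *PGD* at 3.83% and 26.0% over 112 sites and *NRG4* at 3.24% and 23.5% over 69. Each likeness is over 4 values of 2 samples and describes these libraries.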

How the data were processed

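Bone DNA of both samples was read by WGBS in 150 bp pairs. The authors trimmed and aligned the reads, removed duplicates and extracted methylation with Bismark. The submitters' processing notes name Trim Galore 0.4.5, FastQC 0.11.5, Bowtie2, Bismark 0.19.0 and the build ARS-UCD1.2, whereas the study's methods name another build and other versions of Trim Galore, FastQC and Bismark. The authors deposited counts of methylated and unmethylated calls per CpG cytosine.

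Genes came from a RefSeq annotation of ARS-UCD2.0 without strand, exons or sequence, so no sequence beyond the flanking bases of a CpG is shown and no gene coordinates are given. Positions are those of the deposited counts. A check against sequence could not be run. All gene ends were shifted in steps of 500 bp up to 20000 bp. CpG number peaked and methylation, taken from Bone_1 alone, was lowest at shift 0 on 30 of 30 chromosomes. Such steps are too coarse to check the distances of single sites from the start. The start was the right end of *INHBC* and *ICAM3* and the left end of *PIK3CG* and *ESR1*, from the known order of their neighbours. As strand was missing, the tests covered windows at both ends of each gene, and bodies were trimmed at both ends.

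Windows and bodies with at least 20 calls per sample were tested with Fisher's exact test (two-sided) and Benjamini-Hochberg adjustment at 0.05, after a run of the tests on simulated data. Alternatives were other promoter lengths, site minimums, weights, odds ratios, filters on deep cytosines, and reduced calls. For a count of 0 the limit was 3 calls of the total, which takes the calls as independent. The genes, lists and tests were chosen with earlier results of these data known. Named genes were the 4 genes and their neighbours, the lowest, the highest and any end over 20 points apart in each list, and the 3 nearest genes by level. Other genes named in the lists were chosen after their values were seen. Some list members are counted but not reported here by name. The conversion control was not analysed here. The software was matplotlib 3.10.9, numba 0.67.0, numpy 2.4.6, pandas 2.3.3, pyarrow 21.0.0, scipy 1.17.1 and Python 3.11.15.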

Additional observations from a re-analysis of the deposited data

How the results depend on the processing

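The level of *INHBC* moved by less than the SD under every setting that kept both samples. With 500 bp upstream the *PIK3CG* level was 12.3% and its difference 0.214 points with Bone_1 the higher, and *ICAM3* was at 14.6% with a difference of -4.54 points. With 2000 bp upstream the levels were 27.3% at *PIK3CG*, 45.1% at *ICAM3* (difference 7.33 points) and 63.4% at *ESR1* (difference 18.5 points). At *ESR1* neither the promoter nor the added stretch was by itself higher in Bone_1. With sites of at least 5 calls *PIK3CG* was at 12.4% (difference 1.46 points), *ICAM3* at 20.7% and *ESR1* at 7.24% (difference -14.5 points, adjusted p = 0.0256, exact test), within its SD of 16.8, as an unweighted mean *PIK3CG* and *ICAM3* were at 12.0% (difference 1.34 points) and 21.3%, and with the same site weights in both samples, chosen after seeing the data, at 12.3% and 20.7%. The SD at *PIK3CG* and *ICAM3* is so small that shifts of under 1 point count as moved. With calls reduced to the mean per site the differences of 18.2 points at *INHBC* and -23.7 points at *ESR1* lost their calls. The 28033 gene ends called different became 8 under that limit, 9229 with a difference of at least 20 points as well, and 13006 with the end of each gene that held more CpG sites, chosen after seeing the data, which tests fewer windows. Of the calls, 77.9% were higher in Bone_1, 98.3% in the stratified test, 83.7% against the odds ratio of all windows, 88.2% with 500 bp upstream and 57.0% at the end with more CpG sites. That odds ratio, from the summed calls of all windows, was 0.821, with Bone_2 the higher. It runs against the median difference of 10.7 points, where Bone_1 is the higher, so the 83.7% makes no allowance for that gap. With at least 60 CpG sites the nearest dense window was at 0.462% for *PIK3CG*, 166 kb away, and at 1.78% for *ICAM3*, at its far end. The *ICAM3* body was at 55.9% over the whole gene and, in an alternative chosen after seeing the data, 57.0% up to the end of the gene. Leaving out either replicate gave promoter levels from 69.0 to 87.2% at *INHBC*, 12.9 to 13.2% at *PIK3CG*, 20.2 to 20.5% at *ICAM3* and 3.28 to 27.0% at *ESR1*, which are the values of the single samples, as for bodies and dense windows. In all, 89 values under other settings kept their direction and side of the threshold or moved by less than the SD, some of them given above. They include the levels without either replicate, which cannot move by more than the SD when only 2 samples are averaged. The count is therefore no measure of how robust the results are. No paired analysis was possible because bone is the only group and nothing can be paired with it. Depth limits *ESR1* most, with 61 calls at its promoter in Bone_1.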
